A study of Lotus japonicus with 24 samples.

Results

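Nitrate, peptide and ammonium transporter genes of *Lotus japonicus*, a model legume, were followed by RNA-seq through shoots and roots of wild type (WT) and *Ljasn1‐2* plants. A gene was taken as a member when its description in the deposited table named the NRT1/PTR family (NPF), a nitrate transporter, an ammonium transporter (AMT), or the protein domains PF00854 or PF00909. This rule found 96 of the 30243 genes, of which 81 were NPF genes, 11 were AMT genes and 4 were NRT2 genes, that is nitrate transporters outside the NPF. The rule itself uses no measured level, but the members were chosen with earlier results of these data known. The member names used here are those of the closest annotated protein, mostly from Arabidopsis, so that several Lotus genes carry the same name and a name does not establish the same function.

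All plants were of the ecotype Gifu. *Ljasn1‐2* carries a LORE1 retrotransposon within *LjASN1*, a gene for asparagine synthetase, and it was the only mutant line sequenced. Under non-symbiotic (NS) conditions plants were given ammonium nitrate at 5 mM together with potassium nitrate at 3 mM, whereas under symbiotic (S) conditions they were inoculated with *Mesorhizobium loti* and received a nitrogen-free solution with 3 mM potassium chloride. Each of the 8 groups, WT or *Ljasn1‐2* shoots or roots under NS or S conditions, had 3 libraries, and each library was made from 10 pooled plants. The labels give 40 days as the age of all plants and 4 h of light before harvest, but the methods give 26 days for NS plants, 37 days for S plants and 8 h of light. The S and NS plants therefore differed in nitrogen source, in nodulation and possibly in age, and the effects of these cannot be told apart.

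As background, plants take up nitrate through NRT2 proteins, which work at low external nitrate, and through some NPF proteins, most of which work at higher nitrate. NPF6.3, also called NRT1.1, both transports and senses nitrate in Arabidopsis. Other NPF proteins move di- and tripeptides, hormones or nitrate between tissues, and AMT proteins carry ammonium across membranes. In nodulated legumes, bacteria inside root nodules reduce dinitrogen to ammonia, which is assimilated in the nodule and exported to the shoot, in Lotus mainly as asparagine.

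Values are FPKM, that is sequenced fragments scaled by the length of the transcript and by the number of mapped fragments in the library. The libraries held 37503968 to 66820694 reads on genes, with a median of 42533216, and log2(FPKM + 1) of replicates correlated at r = 0.975 to 0.997 across genes. The disrupted gene *LjASN1* (LotjaGi1g1v0118200) ranged from 387 to 472 FPKM in WT and from 24.6 to 39.2 FPKM in *Ljasn1‐2* shoots under NS conditions, from 78.8 to 98.6 and from 3.76 to 5.89 FPKM in shoots under S conditions, from 563 to 695 and from 52.7 to 119 FPKM in roots under NS conditions, and from 92.5 to 161 and from 4.62 to 15.1 FPKM in roots under S conditions, so that every library matched its genotype label. Summed leghemoglobin, the oxygen carrier of nodules, was 13400, 14200 and 6590 FPKM in WT and 15000, 12800 and 7860 FPKM in *Ljasn1‐2* roots under S conditions, and at most 1.03 FPKM in every other library. Root samples under S conditions thus contained nodules, with replicate 3 lowest in both genotypes. Chlorophyll a-b binding genes summed to 25100 to 46100 FPKM in shoots and to 109 to 467 FPKM in roots.

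Expression was uneven across the families. In all, 35 members never reached 1 FPKM in any library, 56 reached it in at least 3 libraries and 41 reached 10 FPKM in at least 1. All 4 NRT2 genes were among the expressed ones, whereas 7 of 11 AMT genes and 28 of 81 NPF genes never reached 1 FPKM. Within the NPF, 7 of 11 NPF1 and 7 of 12 NPF2 genes stayed below this level, against 2 of 10 NPF4, 3 of 16 NPF5 and 2 of 9 NPF8 genes. Most of these low NPF1 genes and some of these low NPF2 genes overlap another member, whereas no NPF4, NPF5 or NPF8 gene does. The counts are thus of annotated genes and not of separate loci. Of the 56 expressed members, 25 had their highest WT mean in shoots under S conditions, 13 in roots under S conditions, 12 in roots under NS conditions and 6 in shoots under NS conditions. This ranking asks for no margin and was not rescaled to the same total of reads on genes in every library. The factors for such rescaling were 0.8055 to 0.8861 in WT shoots under S conditions and 1.114 to 1.259 in WT roots under NS conditions. For 1 expressed member, LotjaGi4g1v0142000_LC, the name NPF4.1 stands beside an amine oxidase domain in the description, and its assignment is uncertain.

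**Figure D1:**
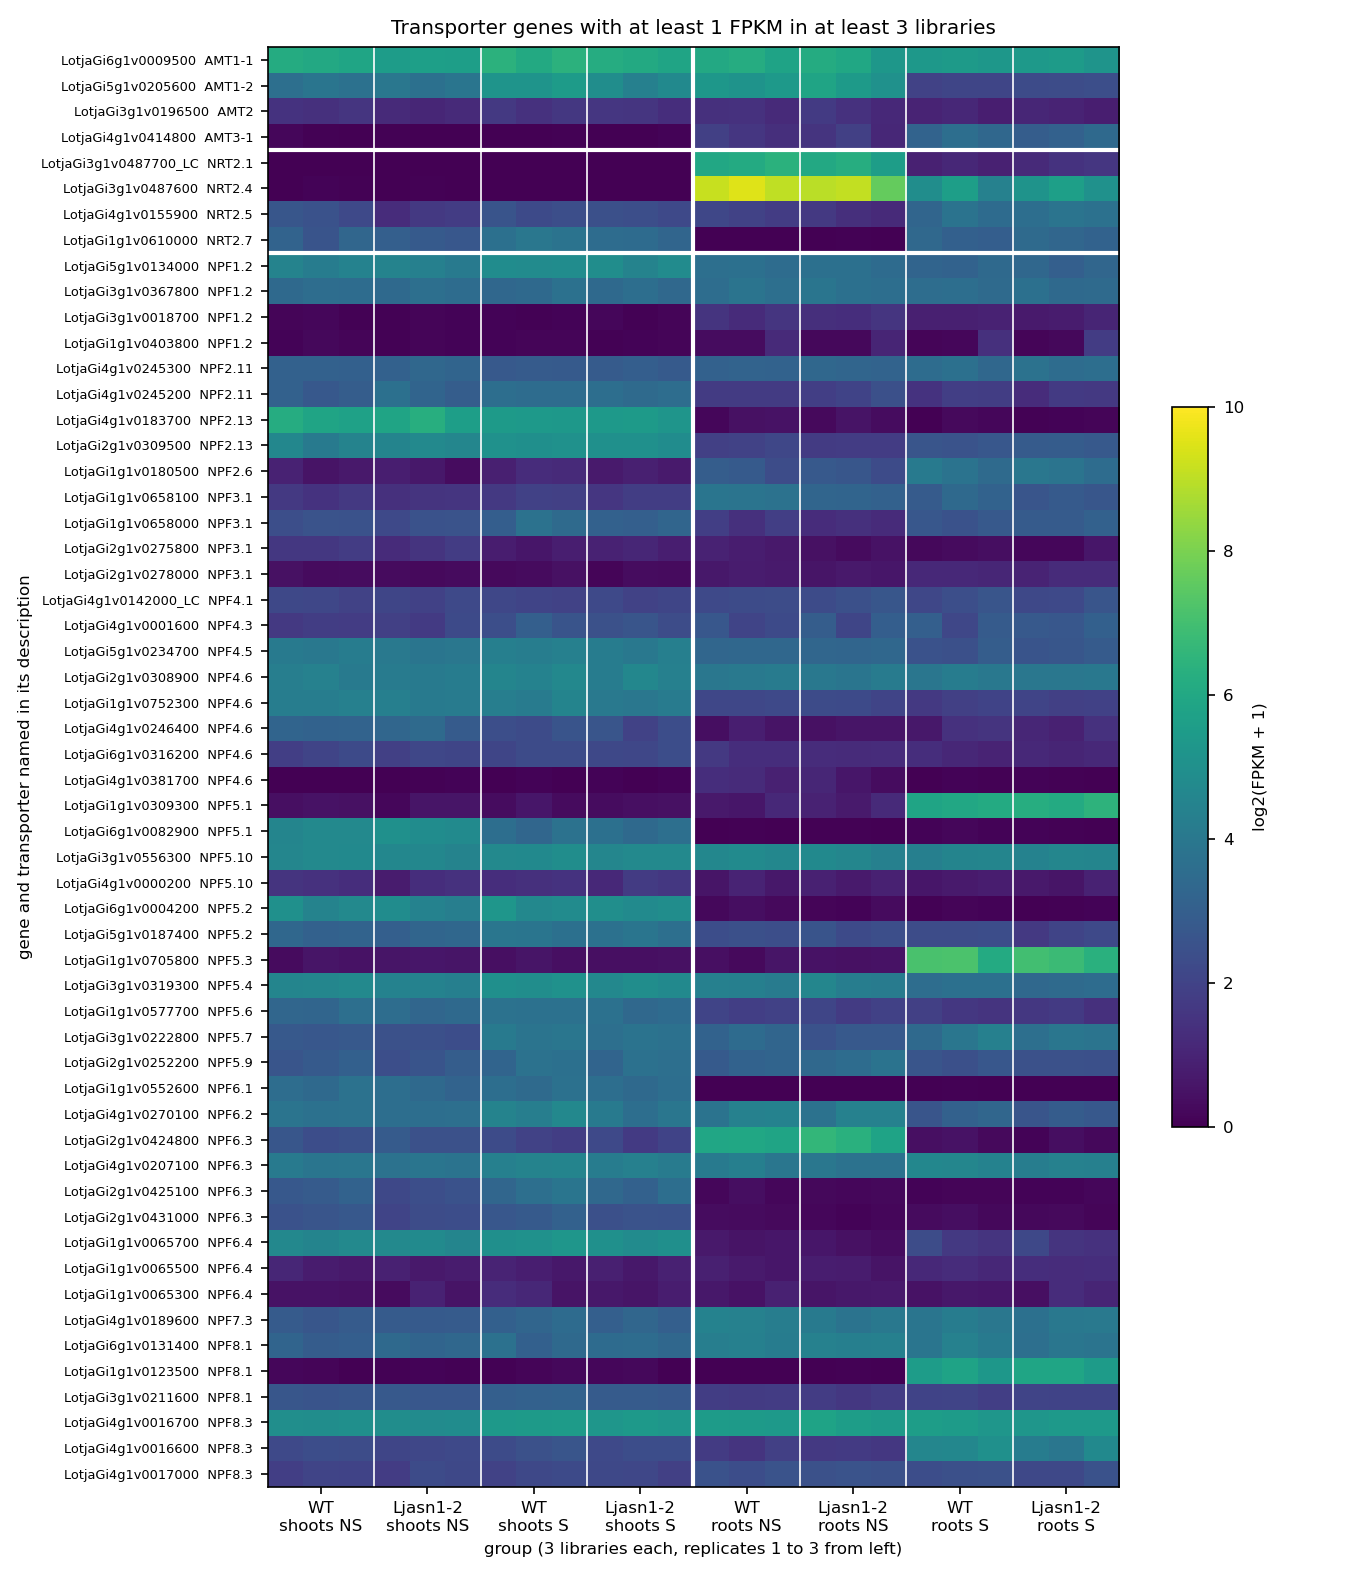
Level of each expressed member in the 24 libraries, on a log2(FPKM + 1) colour scale, with 1 row per gene and 1 column per library grouped by genotype, tissue and condition. The rows split mainly into genes seen in shoots, genes seen in roots of 1 condition and genes seen throughout, and the WT and *Ljasn1‐2* columns of a tissue and condition look alike.

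The summed level of each class moved with tissue and condition in its own way. The 4 NRT2 genes together reached 686 ± 108 FPKM (SD, n = 3) in WT roots under NS conditions and 52.0 ± 15.9 FPKM under S conditions, whereas in WT shoots they summed to 11.9 ± 1.95 and 17.6 ± 0.683 FPKM. The AMT genes summed to 106 ± 5.67 FPKM in WT roots under NS conditions and 54.0 ± 3.27 FPKM under S conditions, but to 78.8 ± 6.42 and 119 ± 14.3 FPKM in shoots. For the NPF, sums under S conditions were above those under NS conditions in WT roots, with 536 ± 44.3 against 360 ± 10.2 FPKM, and in WT shoots, with 560 ± 21.7 against 474 ± 22.1 FPKM. In each of these 6 class and tissue combinations the WT libraries of the NS and S groups did not overlap. A sum follows its highest genes, such as the NPF5.3 gene LotjaGi1g1v0705800, at 140, 143 and 69.0 FPKM in WT roots under S conditions. Of the NPF genes tested there, 20 were lower and 16 higher under S conditions, with a median log2 difference of −0.03. In WT shoots 9 were lower and 29 higher, with a median of 0.27.

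Among the ammonium transporters, the AMT1-2 gene (LotjaGi5g1v0205600, chromosome 5, 50792433 to 50797139, minus strand, assembly LjG1.1) went in opposite directions in the tissues. WT roots measured 38.2, 34.3 and 40.6 FPKM under NS conditions and 2.88, 3.21 and 3.29 FPKM under S conditions, and WT shoots 11.7, 13.7 and 12.1 FPKM under NS conditions and 35.0, 34.8 and 44.1 FPKM under S conditions. No S library overlapped an NS library in either tissue. The mean was 12.1-fold lower under S conditions in roots and 3.04-fold higher in shoots. On the log2(FPKM + 1) scale, which compresses the changes of low genes and is used for every log2 difference given here, the S minus NS difference was −3.23 in roots (SE 0.13, limma adjusted p = 3.302e-06) and 1.52 in shoots (SE 0.13, adjusted p = 0.0007711). *Ljasn1‐2* plants went the same way, from 56.0, 43.0 and 32.5 to 3.93, 3.99 and 4.33 FPKM in roots and from 14.5, 12 and 13.8 to 28.7, 19.7 and 25.7 FPKM in shoots. In bulk tissue, a lower level in each cell and a smaller share of the cells that express a gene cannot be told apart, and this holds for every difference described here.

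The AMT1-1 gene (LotjaGi6g1v0009500, chromosome 6, 1773093 to 1776879, minus strand), named after the high-affinity ammonium uptake protein of Arabidopsis, had the highest mean of the family in every group. WT roots measured 64.7, 72.1 and 55.2 FPKM under NS conditions and 39.7, 42.2 and 38.4 FPKM under S conditions, a 1.59-fold lower mean (log2 difference −0.65, SE 0.16, limma adjusted p = 0.02099). This call was lost without WT roots NS replicate 1 (adjusted p = 0.0866), NS replicate 2 (0.102), S replicate 1 (0.0876) or S replicate 2 (0.069). WT shoots measured 70.0, 64.5 and 57.2 FPKM under NS conditions and 83.9, 66.5 and 85.2 FPKM under S conditions, where the groups overlapped (adjusted p = 0.3107). The AMT3-1 gene (LotjaGi4g1v0414800, chromosome 4, 79032108 to 79036531, minus strand), described after a rice protein, was a root gene with the opposite direction. It rose from 2.74, 1.99 and 1.52 FPKM in WT roots under NS conditions to 8.13, 11.1 and 9.22 FPKM under S conditions, a 4.55-fold higher mean (log2 difference 1.77, SE 0.19, adjusted p = 0.0005099), and never exceeded 0.128 FPKM in shoots. The only other expressed AMT gene, described as AMT2 (LotjaGi3g1v0196500), stayed between 0.789 and 2.27 FPKM in all libraries.

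The NRT2 genes divided by condition in roots. The NRT2.4 gene (LotjaGi3g1v0487600, chromosome 3, 90521978 to 90524577, plus strand), named after an Arabidopsis high-affinity transporter of nitrogen-starved roots, was the member with the highest level of all. It measured 571, 738 and 526 FPKM in WT roots under NS conditions and 29.1, 47.9 and 20.1 FPKM under S conditions, so the mean fell 18.9-fold (log2 difference −4.27, SE 0.32, limma adjusted p = 8.827e-05). The NRT2.1 gene (LotjaGi3g1v0487700_LC), named after the inducible high-affinity nitrate uptake protein of Arabidopsis roots, lies 2808 bases away on the opposite strand (chromosome 3, 90527386 to 90529889). Its WT roots measured 62.8, 68.4 and 83.2 FPKM under NS conditions and 0.885, 1.15 and 0.891 FPKM under S conditions. All 3 S libraries were thus far under the NS libraries, and the mean was 73.3-fold lower (log2 difference −5.19, SE 0.15, adjusted p = 1.113e-06). No shoot library of either genotype had a single read on the NRT2.1 gene. Against a floor of 3 reads per library, WT roots were at least 2130-fold higher than WT shoots under NS conditions and at least 25.8-fold higher under S conditions, where the floors cover counting error only. How reads that match both of these neighbours were counted is not given in the sources used here, and they could share reads.

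The other pair of NRT2 genes was higher in roots under S conditions. For the NRT2.7 gene (LotjaGi1g1v0610000, chromosome 1, 115430712 to 115433845, plus strand), whose Arabidopsis namesake loads nitrate into seed vacuoles, WT roots had 0.0182, 0 and 0.0274 FPKM under NS conditions, that is at most 3 reads in a library, and 9.44, 7.37 and 7.01 FPKM under S conditions (log2 difference 3.13, SE 0.14, limma adjusted p = 4.827e-06). In shoots the same gene was present under both conditions, at 8.17, 5 and 8.88 FPKM under NS and 12, 14.6 and 13.1 FPKM under S conditions. Its shoot difference passed the test with all libraries (log2 0.80, SE 0.19, adjusted p = 0.0453) but not without WT shoots NS replicate 2 (adjusted p = 0.0974) or without WT shoots S replicate 1, 2 or 3 (0.0692, 0.169 and 0.168), nor without the filter on low values (0.109) or after rescaling (0.0719). The NRT2.5 gene (LotjaGi4g1v0155900, chromosome 4, 27139588 to 27142095, minus strand), named after a transporter of long-starved Arabidopsis plants, rose from 3.37, 2.89 and 2.40 FPKM to 8.63, 13.0 and 10.4 FPKM in WT roots. Its mean was 3.70-fold higher under S conditions (log2 difference 1.58, SE 0.18, adjusted p = 0.0007537), and WT shoots overlapped between conditions, with 5.35, 4.72 and 3.63 against 5.11, 3.76 and 4.28 FPKM.

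**Figure D2:**
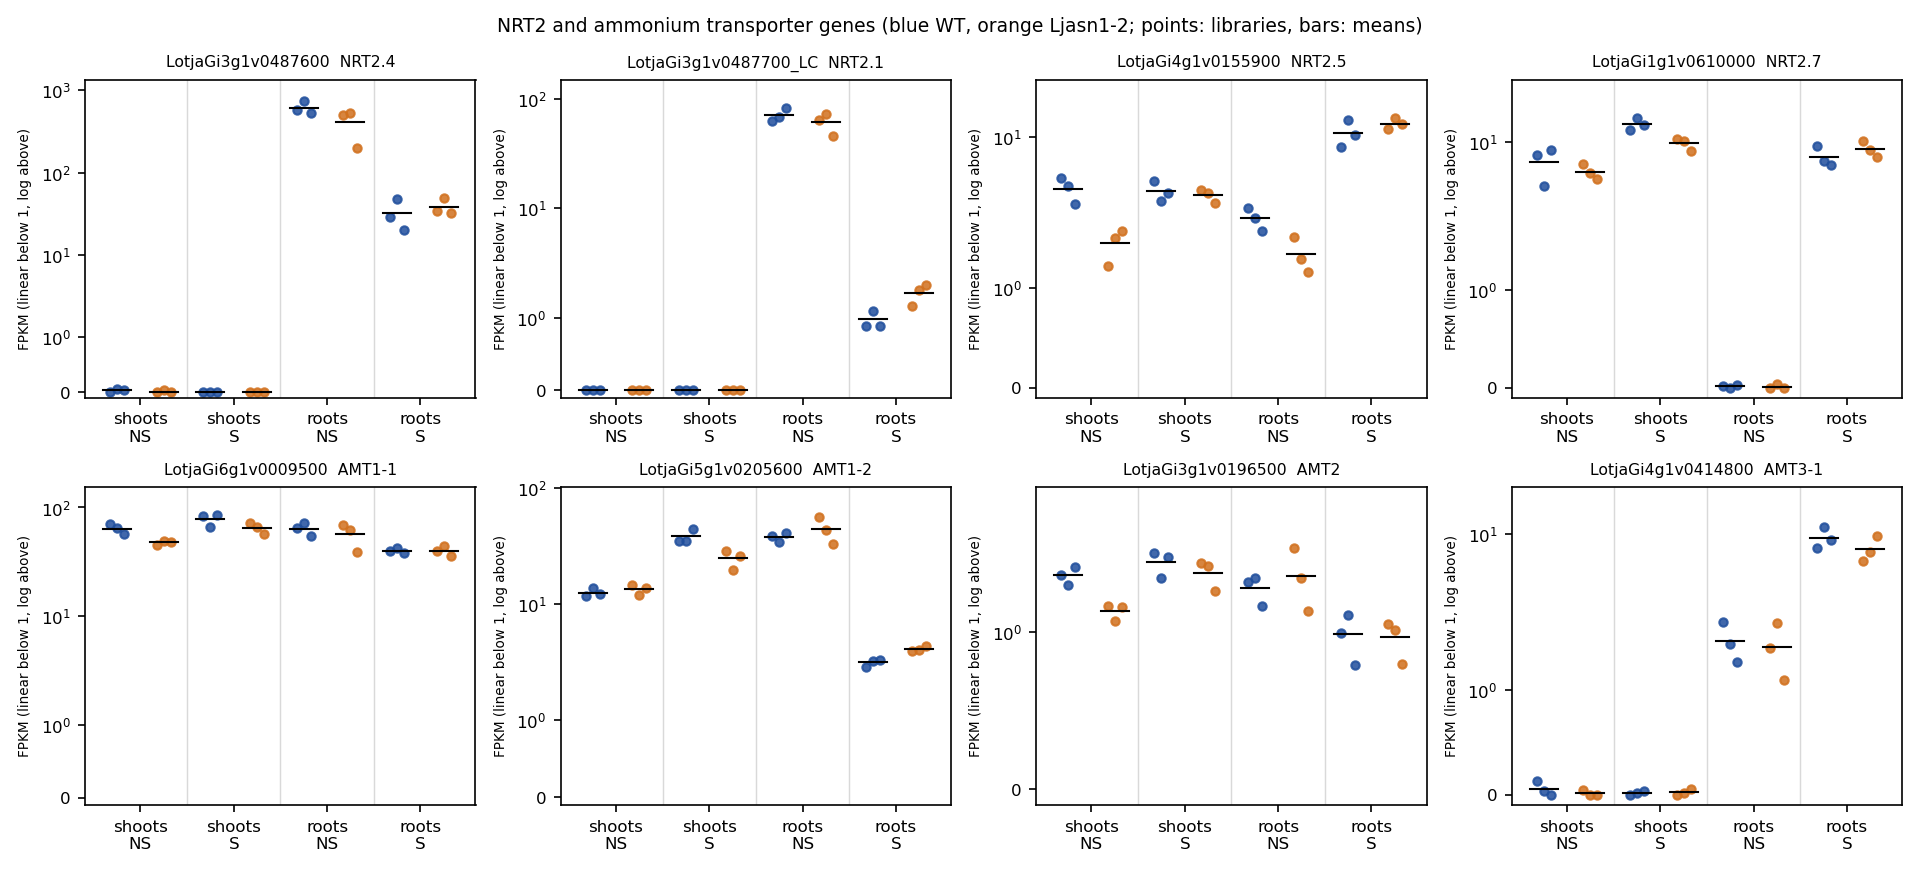
FPKM of the 4 NRT2 genes and the 4 expressed AMT genes in each of the 8 groups, with 1 point per library (blue WT, orange *Ljasn1‐2*) and a bar at the mean, on axes that are linear below 1 FPKM and logarithmic above. The NRT2.4 and NRT2.1 genes fell and the NRT2.5, NRT2.7 and AMT3-1 genes rose from NS to S roots, whereas the AMT1-2 gene was lower in S roots and higher in S shoots.

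The 4 genes described as NPF6.3 had unlike patterns. LotjaGi2g1v0424800 (chromosome 2, 92269172 to 92272564, plus strand) measured 59.9, 60.7 and 55.9 FPKM in WT roots under NS conditions, which made it the NPF gene of highest mean there, and 0.335, 0.420 and 0.205 FPKM under S conditions. The 184-fold lower mean (log2 difference −5.50, SE 0.13, limma adjusted p = 6.967e-07) was the largest decrease among the members in WT roots. In *Ljasn1‐2* roots the levels went from 98.6, 79.6 and 54.8 FPKM to 0.0821, 0.296 and 0.169 FPKM. The gene was low in WT shoots, with 5.33, 4.11 and 4.37 FPKM under NS and 3.89, 2.89 and 2.53 FPKM under S conditions, and this difference did not pass the test (adjusted p = 0.132), though it did with the replicate number as a block (adjusted p = 0.01266). The other three were not root genes of this kind. LotjaGi2g1v0425100 and LotjaGi2g1v0431000 were at 5.79 to 13.9 FPKM and 4.80 to 7.60 FPKM in WT shoots and at no more than 0.277 and 0.310 FPKM in roots, and LotjaGi4g1v0207100 was at 12.6 to 23.9 FPKM in all libraries.

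A group of NPF genes was found almost entirely in roots under S conditions. The NPF5.3 gene LotjaGi1g1v0705800 (chromosome 1, 127418229 to 127425872, plus strand) measured 140, 143 and 69.0 FPKM in WT and 126, 112 and 81.3 FPKM in *Ljasn1‐2* roots under S conditions, and 0.184 to 0.534 FPKM in the other libraries. In both genotypes replicate 3 was the lowest of these, as it was for leghemoglobin. WT roots under S conditions were 357-fold above those under NS conditions (log2 difference 6.41, SE 0.28, limma adjusted p = 5.097e-06). The NPF5.1 gene LotjaGi1g1v0309300 (chromosome 1, 75138380 to 75153689, plus strand) measured 56.4, 63.2 and 68.6 FPKM in WT roots under S conditions and 0.628, 0.535 and 1.22 FPKM under NS conditions, a 78.9-fold higher mean (log2 difference 5.17, SE 0.18, adjusted p = 1.673e-06). Replicate 3 was the highest WT library for this gene, although it had the lowest leghemoglobin. The NPF8.1 gene LotjaGi1g1v0123500 (chromosome 1, 19602248 to 19606206, plus strand), named after the di- and tripeptide transporter PTR1 of Arabidopsis, had 45.2, 55.2 and 38.0 FPKM in WT roots under S conditions (log2 difference 5.54, SE 0.16, adjusted p = 1.113e-06). Under NS conditions WT roots had 0, 0 and 0.00775 FPKM, that is 1 read on it in total.

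The NPF8.3 gene LotjaGi4g1v0016600 (chromosome 4, 2126872 to 2143745, minus strand), named after the peptide transporter PTR2, was present in all groups but rose in WT roots from 2.34, 1.8 and 2.68 FPKM to 22.8, 23.6 and 31.0 FPKM, an 11.3-fold higher mean (log2 difference 3.03, SE 0.17, limma adjusted p = 2.179e-05). Its neighbour of the same name, LotjaGi4g1v0016700, 2745 bases away, was at 27.0 to 55.2 FPKM in all 24 libraries. The NPF6.4 gene LotjaGi1g1v0065700, mainly a shoot gene, went from 0.585, 0.428 and 0.521 FPKM to 3.98, 2.18 and 1.82 FPKM in WT roots (log2 difference 1.23, SE 0.21, adjusted p = 0.00515). The NPF6.2 gene LotjaGi4g1v0270100, named after the nitrate transporter NRT1.4 of Arabidopsis petioles, was lower under S conditions in WT roots, at 5.30, 7.58 and 8.80 against 13.2, 20 and 20.7 FPKM (log2 difference −1.2, SE 0.23, adjusted p = 0.008525). The NPF3.1 gene LotjaGi1g1v0658100 fell in WT roots from 13.7, 13.3 and 12.8 FPKM to 6.37, 9.57 and 7.84 FPKM (log2 difference −0.69, SE 0.16, adjusted p = 0.01838). This last call was lost without WT roots NS replicate 1 or 2 or WT roots S replicate 1, with adjusted p between 0.0712 and 0.0723.

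**Figure D3:**
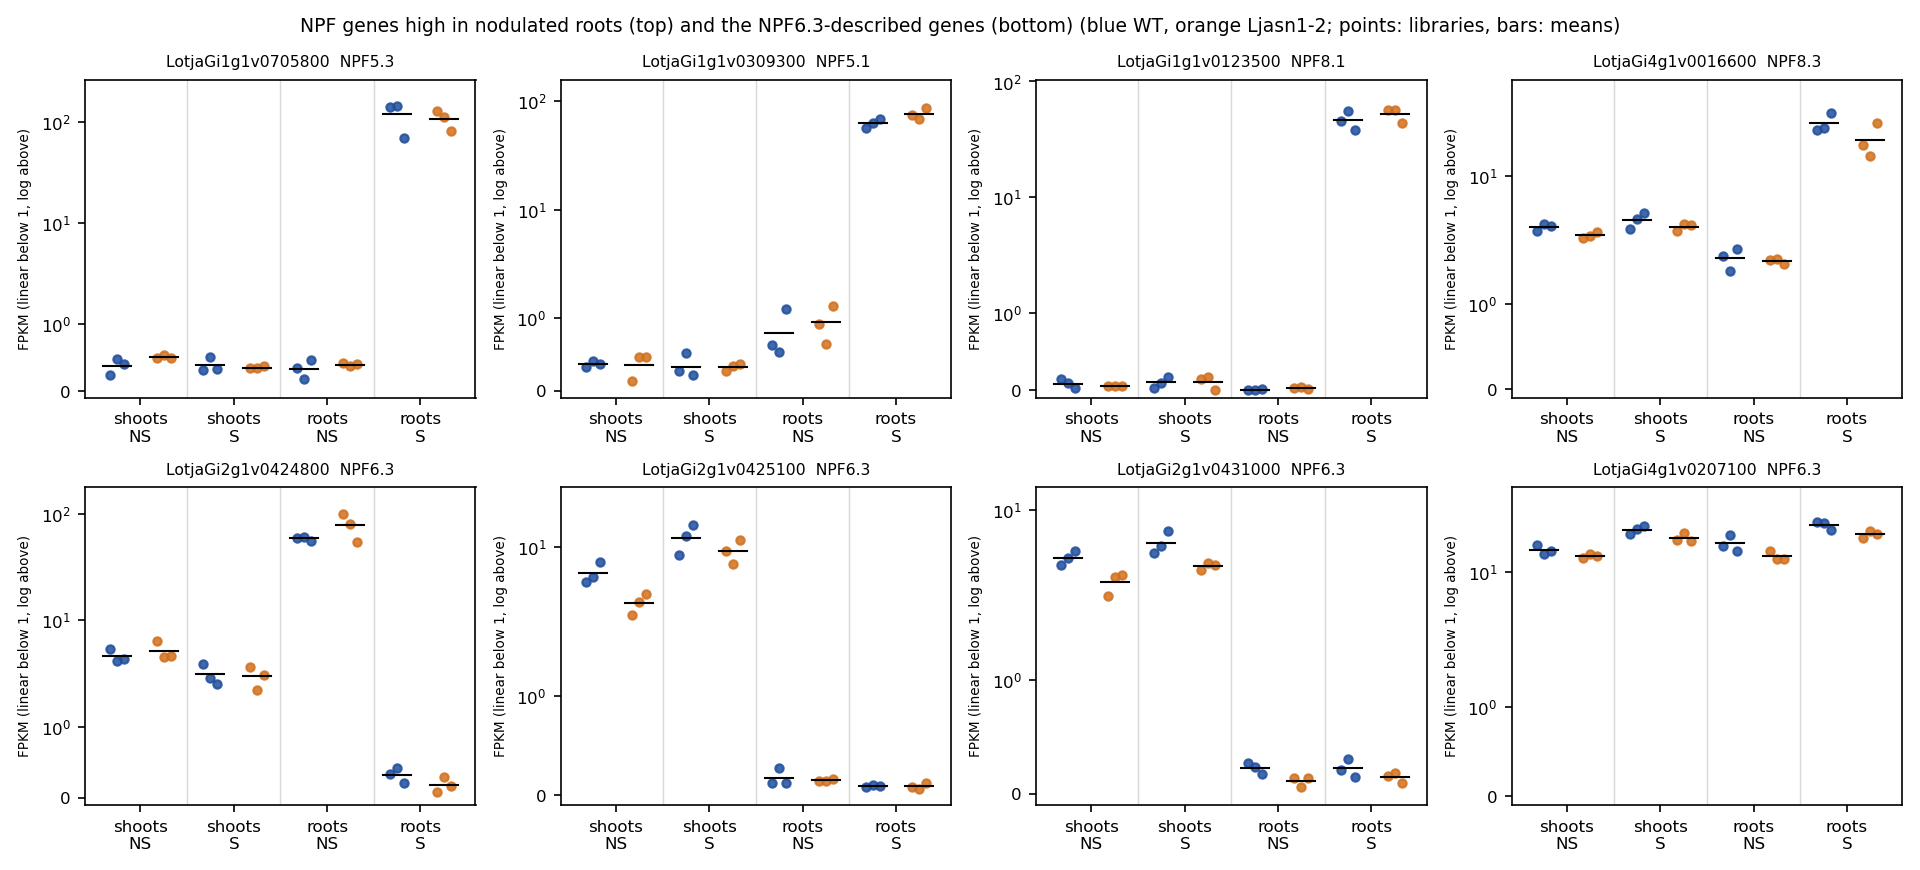
FPKM of 4 NPF genes that were high in roots under S conditions (top) and of the 4 genes described as NPF6.3 (bottom) in each of the 8 groups, with 1 point per library (blue WT, orange *Ljasn1‐2*) and a bar at the mean, on axes that are linear below 1 FPKM and logarithmic above. In the top row roots under S conditions stand above the other groups, and in the bottom row only LotjaGi2g1v0424800 is highest in roots under NS conditions.

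Most tested members differed in level between shoots and roots. In WT under NS conditions 38 of 48 tested members differed between the tissues, 24 higher in shoots and 14 higher in roots, at limma adjusted p under 0.05, where 52.5% of all tested genes differed, 26.3% higher in shoots and 26.2% higher in roots. Without WT shoots NS replicate 2 the count was 25 of 38, against 40.9% of all genes. Under S conditions 42 of 50 differed, 28 higher in shoots and 14 higher in roots, against 55.1% of all genes, 27.6% and 27.5%. A member expressed in only 1 of the tissues enters the test through that tissue, so these counts describe the expressed members and not all 96. Rescaling every library to the same total of reads on genes moved the median shoot minus root log2 difference of all genes from −0.04 to −0.34 under NS conditions and from −0.05 to −0.33 under S conditions, and the NS split became 20 higher in shoots and 22 higher in roots, against 20.4% and 44.0% of all genes.

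Shoots had their own leading NPF genes. The NPF2.13 gene LotjaGi4g1v0183700 (chromosome 4, 39458889 to 39464176, minus strand), named after the Arabidopsis protein NRT1.7 that loads nitrate into the phloem of old leaves, had the highest shoot mean of the NPF under NS conditions. WT shoots measured 71.2, 56.9 and 51.4 FPKM under NS and 42.3, 40.3 and 39.4 FPKM under S conditions, and roots never exceeded 0.441 FPKM. Under S conditions the NPF8.3 gene LotjaGi4g1v0016700 was about as high in WT shoots, at 40.0, 42.8 and 43.7 FPKM. The NPF5.1 gene LotjaGi6g1v0082900, the NPF5.2 gene LotjaGi6g1v0004200, the NPF6.4 gene LotjaGi1g1v0065700 and the NPF6.1 gene LotjaGi1g1v0552600 were further shoot genes. Under NS conditions their WT shoot minus root log2 differences were 4.62, 4.45, 4.04 and 3.59, with limma adjusted p from 1.348e-08 to 8.381e-08, against 5.55 for LotjaGi4g1v0183700. All 5 remained higher in shoots under S conditions, with log2 differences from 3.28 to 5.25. In the other direction, the NRT2.4 gene LotjaGi3g1v0487600 had a shoot minus root log2 difference of −9.20 under NS conditions and the NPF7.3 gene LotjaGi4g1v0189600, named after the xylem-loading nitrate transporter NRT1.5, had −1.54. The latter measured 20.8, 19.8 and 17.7 FPKM in WT roots and 6.27, 5.37 and 6.38 FPKM in WT shoots. By contrast the NPF5.10 gene LotjaGi3g1v0556300 was nearly level, at 18.8 to 28.6 FPKM in all 24 libraries.

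Counted over the families, a member expressed under only 1 condition enters the test of S against NS through it and has to differ, so the counts that follow describe the expressed members and are partly set by that entry. In WT roots 8 of the 44 tested members had no library at 1 FPKM under 1 of the conditions, as did 4.23% of all tested genes, and all 8 were called. In all, 23 of 44 tested members (52.3%) changed at limma adjusted p under 0.05, 13 higher and 10 lower under S conditions, where 24.1% of all tested genes did, 11.6% higher and 12.5% lower. The median log2 difference of the members was −0.05, against 0.01 for all genes. Without WT roots NS replicate 1 or NS replicate 2 the count was 14 of 42, against 15.4% and 14.3% of all genes, without S replicate 2 it was 14 of 38, against 13.5%, and without S replicate 1 it was 12 of 38, against 13.2%. Fewer members were tested in these fits because those at 1 FPKM only in the group that lost a library no longer passed the filter. The replicate block gave 30 of 44, against 48.1% of all genes. In *Ljasn1‐2* roots 26 of 44 changed, 15 higher and 11 lower, against 27.8% of all genes, 12.7% higher and 15.1% lower. That count was 15 of 38 without S replicate 1 or S replicate 2, against 16.3% and 14.3% of all genes, and 31 of 44 with the replicate block, against 51.9%. Among the 44 members tested there, 7 had no library at 1 FPKM under 1 of the conditions, and all 7 were called. In roots 22 members were called in the same direction in both genotypes, which is 95.7% of the WT calls and 84.6% of the *Ljasn1‐2* calls, and none was called in opposite directions. Rescaling to the total of reads moved the median of all genes from 0.01 to −0.11 in WT and from 0.01 to −0.12 in *Ljasn1‐2* roots, and of the root calls named here only that of the NPF2.13 gene LotjaGi2g1v0309500, described with the tissues, was lost with it. The WT root split became 11 higher and 12 lower, against 10.2% and 15.9% of all genes. In *Ljasn1‐2* roots the split became 14 higher and 14 lower, against 10.7% and 19.5%. Casparian strip genes, 5 markers of the root endodermis, summed to 77.4 to 107 FPKM in WT and 87.4 to 183 FPKM in *Ljasn1‐2* roots under NS conditions and to 37.6 to 59.3 and 41.2 to 45.5 FPKM under S conditions, and to at most 0.188 FPKM in shoots. Their part in the root differences was not tested.

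In WT shoots 17 of 43 tested members changed, 14 higher and 3 lower under S conditions, at limma adjusted p under 0.05, against 6.18% of all genes, 3.43% higher and 2.75% lower. Blocking on the replicate number gave 26, 20 higher and 6 lower, where 23.1% of all genes passed. It was 10 of 81 without the filter on low values, against 2.48% of all genes, and 11 of 43 after rescaling (7 higher and 4 lower), against 6.64%. Leaving out NS replicate 2 gave 5 of 42, against 2.18% of all genes, and leaving out NS replicate 3 gave 7 of 42, against 4.51%. Leaving out S replicate 3 gave 5 of 43, against 1.98%, and leaving out S replicate 2 gave 7 of 43, against 2.54%. The median log2 difference of the members was 0.29, against 0.03 for all genes, and rescaling moved these to 0.17 and −0.07. In *Ljasn1‐2* shoots 14 of 43 changed, 11 higher and 3 lower, against 11.9% of all genes, 6.05% and 5.81%. This count was 7 without NS replicate 2 or S replicate 2, 8 without S replicate 3 and 9 without S replicate 1, each of 43, against 6.18%, 8.4%, 5.82% and 6.95% of all genes. Rescaling gave 7 higher and 5 lower while the median of all genes went from 0.04 to −0.09. Both shoot comparisons called the same 10 members in the same direction, 58.8% of the WT and 71.4% of the *Ljasn1‐2* calls, and none in opposite directions.

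After AMT1-2, the largest rise in WT shoots was that of the NPF5.7 gene LotjaGi3g1v0222800, from 5.95, 5.54 and 5.85 FPKM to 16.4, 13.4 and 14.1 FPKM (log2 difference 1.2, SE 0.11, limma adjusted p = 0.001185). The NPF3.1 gene LotjaGi1g1v0658000, whose Arabidopsis namesake carries gibberellin, went from 4.22, 4.82 and 4.75 FPKM to 6.90, 12.8 and 10 FPKM (log2 difference 0.93, adjusted p = 0.02666). The NPF4.3 gene LotjaGi4g1v0001600 went from 2.18, 2.50 and 2.40 FPKM to 4.34, 7.05 and 5.12 FPKM (log2 difference 0.93, adjusted p = 0.01206). The first of these calls held in every fit tried. The NPF3.1 call was lost without the filter (adjusted p = 0.0785), after rescaling (0.0643) and without NS replicate 2 (0.0837), NS replicate 3 (0.0548), S replicate 2 (0.0833) or S replicate 3 (0.124), and the NPF4.3 call without S replicate 3 (0.0599). The NPF5.9 gene LotjaGi2g1v0252200 was at the threshold (log2 difference 0.70, adjusted p = 0.04959) and lost its call in 8 of the other fits, all but those with the block, with voom weights and without S replicate 1, with adjusted p from 0.0501 to 0.208. The members that fell were the NPF5.1 gene LotjaGi6g1v0082900, from 22.5, 24.9 and 24.9 FPKM to 11.4, 8.89 and 12.5 FPKM (log2 difference −1.08, SE 0.14, adjusted p = 0.003958), the NPF3.1 gene LotjaGi2g1v0275800 (−0.92, adjusted p = 0.004606) and the NPF4.6 gene LotjaGi4g1v0246400 (−0.75, adjusted p = 0.007386), the last named after an Arabidopsis transporter of nitrate and abscisic acid. The NPF2.13 gene LotjaGi4g1v0183700, the NPF gene of highest mean in NS shoots, was lower in all 3 S libraries but missed the threshold (log2 difference −0.53, adjusted p = 0.06097) and passed it with the replicate block (0.003402).

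**Figure D4:**
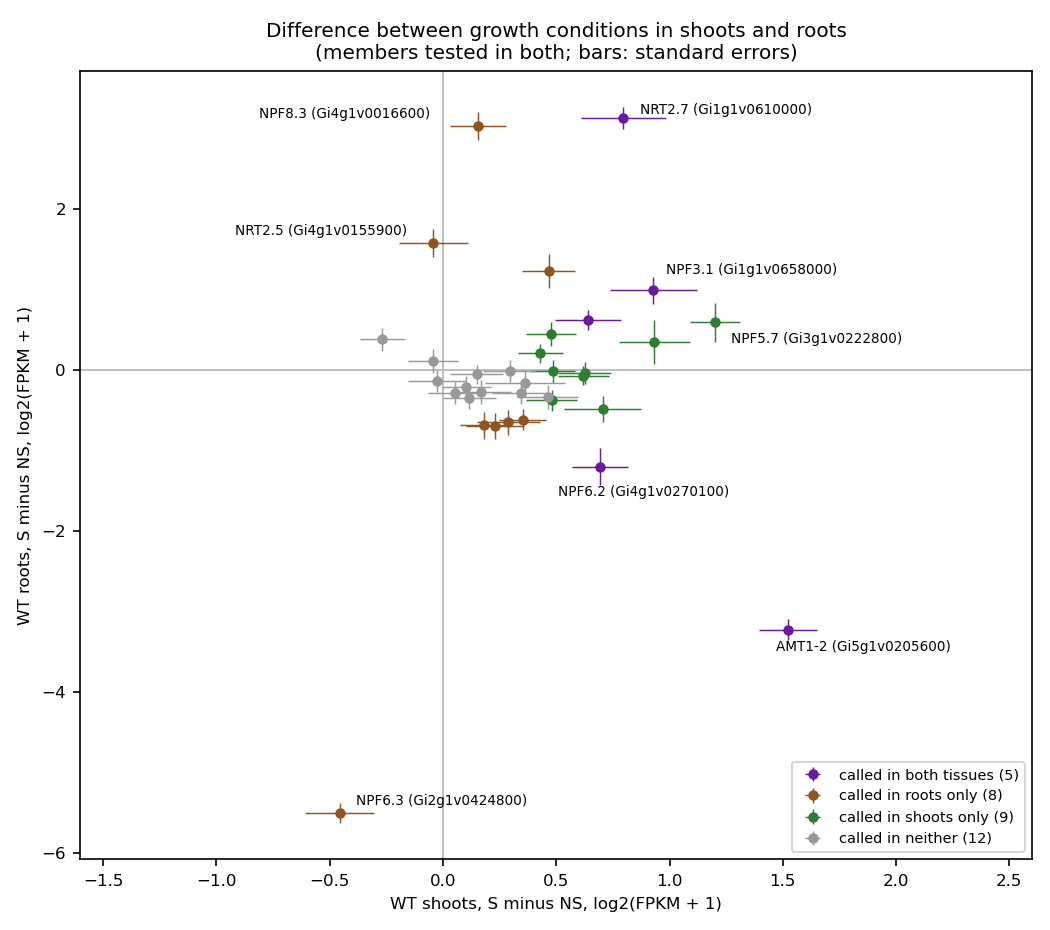
S minus NS difference on the log2(FPKM + 1) scale in WT shoots (x axis) against WT roots (y axis), with 1 point per member tested in both tissues, bars for the standard errors and colours for the tissues in which a member was called. Of the 34 members, 5 were called in both tissues, 8 in roots only, 9 in shoots only and 12 in neither, and the AMT1-2 gene lies far from the others, at −3.23 in roots and 1.52 in shoots.

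The test of the difference between the tissues was made in WT as the root S minus NS difference minus the shoot difference. It was past adjusted p 0.05 in limma for 29 of 53 tested members, 11 with a larger value in roots and 18 with a larger value in shoots, against 19.1% of all genes, 8.62% and 10.5%. A gene near 0 in one tissue enters this test through the other and its value restates the difference there, as for the NRT2.1 gene, at 0 in all shoot libraries, and the NPF8.1 gene, at no more than 0.172 FPKM in shoots. The 5 of smallest adjusted p were the NRT2.1 gene LotjaGi3g1v0487700_LC (−5.19, SE 0.17), the NPF8.1 gene LotjaGi1g1v0123500 (5.52, SE 0.18), the AMT1-2 gene LotjaGi5g1v0205600 (−4.75, SE 0.18), the NPF6.3 gene LotjaGi2g1v0424800 (−5.05, SE 0.20) and the NPF5.1 gene LotjaGi1g1v0309300 (5.21, SE 0.21), with adjusted p from 5.121e-10 to 2.685e-09. Only 2 members tested in both tissues were called lower in S roots and higher in S shoots, the AMT1-2 gene and the NPF6.2 gene LotjaGi4g1v0270100. The latter measured 13.3, 12.2 and 12.7 FPKM in WT shoots under NS conditions and 21.2, 18.5 and 24.3 FPKM under S conditions (log2 difference 0.69, SE 0.12, adjusted p = 0.01498, but 0.0785 without NS replicate 2 and 0.0821 without S replicate 3), and its difference between the tissues was −1.90 (adjusted p = 0.0003574). The NPF3.1 gene LotjaGi1g1v0658000, the NPF2.13 gene LotjaGi2g1v0309500 and the NRT2.7 gene were called higher under S conditions in both tissues. LotjaGi2g1v0309500 measured 2.75, 2.93 and 3.40 FPKM in WT roots under NS and 5.21, 4.89 and 5.49 FPKM under S conditions, and 23.6, 16.1 and 21.2 FPKM against 32.4, 30.9 and 32.3 FPKM in WT shoots. Its root call was lost after rescaling (adjusted p = 0.0563) and without NS replicate 1 (0.0559) or NS replicate 2 (0.0534), and its shoot call without the filter (0.0758) and without any library but NS replicate 1 (0.0733 to 0.163).

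Between genotypes no member passed limma adjusted p under 0.05 in any of the 4 comparisons. With voom weights on the recovered reads the count was also 0 in each. Of all genes, limma called 17 in S shoots, 5 in S roots, 70 in NS shoots and 7 in NS roots. The study's DESeq2 test called more genes in each comparison at the same threshold, among them members named below. The absence of a call here is therefore not evidence that a member did not differ. In shoots under S conditions 0 of 42 members passed, where 0.106% of all genes passed, and 5 members and 6.66% of all genes were at unadjusted p under 0.05. The members' log2 differences (*Ljasn1‐2* minus WT) ran from −0.61 to 0.11 with a median of −0.11, 37 lower and 5 higher in *Ljasn1‐2*, against a median of 0.00 for all genes. The groups did not overlap for 6 members, all lower, against 11.5% of all genes. In roots under S conditions 0 of 43 passed, against 0.0308% of all genes and 1.6% with the replicate block, 2 members and 2.83% of all genes passed unadjusted, and the groups of 9 members did not overlap, against 6.76% of all genes. In shoots under NS conditions 0 of 43 passed, against 0.433% of all genes, 7 members and 5.04% of all genes passed unadjusted, and 14 did not overlap, 11 lower and 3 higher in *Ljasn1‐2*, against 11.0% of all genes. In roots under NS conditions 0 of 38 passed, against 0.0433% of all genes, 6 members and 4.97% of all genes passed unadjusted, and 10 did not overlap, against 10.3%. The widest unadjusted 95% interval of a member's log2 difference reached 0.395, 0.759, 0.455 and 0.940 to either side in these 4 comparisons, in the order given. The split was less one-sided outside S shoots. In S roots 26 members were lower and 17 higher in *Ljasn1‐2* (median −0.03), in NS shoots 26 and 17 (−0.06), and in NS roots 23 and 15 (−0.04).

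The smallest adjusted p of a member in these comparisons was that of the NRT2.5 gene LotjaGi4g1v0155900 in shoots under NS conditions. WT shoots measured 5.35, 4.72 and 3.63 FPKM and *Ljasn1‐2* shoots 1.40, 2.15 and 2.39 FPKM, without overlap and with a 2.31-fold lower mean in *Ljasn1‐2* (log2 difference −0.91, SE 0.17, limma adjusted p = 0.1255, and 0.04329 with the replicate block). Roots under NS conditions measured 3.37, 2.89 and 2.40 FPKM in WT and 2.17, 1.56 and 1.28 FPKM in *Ljasn1‐2* (log2 difference −0.55, adjusted p = 0.7114, and 0.02066 with the block). Under S conditions the genotypes overlapped in both tissues for this gene, but the change of the genotype difference with condition did not pass the test in shoots (0.84, SE 0.22, adjusted p = 0.3571). With the block, 2 members were called in shoots under NS conditions, where 1.72% of all genes were, namely the NRT2.5 gene and the NPF6.3 gene LotjaGi2g1v0425100 (−0.56, adjusted p = 0.01949). In roots under NS conditions the block called 4, where 4.47% of all genes were called. Of these, the NPF3.1 gene LotjaGi1g1v0658100, at 13.7, 13.3 and 12.8 FPKM in WT and 8.65, 8.33 and 7.51 FPKM in *Ljasn1‐2*, had a log2 difference of −0.64 (adjusted p = 0.2488 without and 0.007593 with the block), and the others were the NRT2.5 gene, the NPF5.7 gene LotjaGi3g1v0222800 (−0.59, 0.01319 with the block) and the NPF5.9 gene LotjaGi2g1v0252200 (0.50, 0.02029 with the block).

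Under S conditions the AMT1-2 gene LotjaGi5g1v0205600 measured 35.0, 34.8 and 44.1 FPKM in WT shoots and 28.7, 19.7 and 25.7 FPKM in *Ljasn1‐2* shoots (log2 difference −0.61, SE 0.15, limma adjusted p = 0.3033). The NPF6.2 gene LotjaGi4g1v0270100 had 21.2, 18.5 and 24.3 FPKM against 16.0, 11.2 and 14.3 FPKM there (−0.59, SE 0.14, adjusted p = 0.2898). Neither pair of groups overlapped. These genes, with the NRT2.5 gene and the NPF3.1 genes LotjaGi1g1v0658100 and LotjaGi2g1v0275800, are members that the study's own lists of changed genes contain. The study's DESeq2 test thus called them changed between genotypes, which the limma test here did not. LotjaGi2g1v0275800 passed the filter on low values only in shoots under NS conditions, and elsewhere its genotype difference was not tested. It had 0.616 to 0.917 FPKM in WT and 0.236 to 0.387 FPKM in *Ljasn1‐2* roots under NS conditions. In shoots under S conditions it was higher in *Ljasn1‐2*, at 0.813 to 1.09 against 0.521 to 0.772 FPKM. Those lists were made from the same libraries and are not independent evidence. The genotype difference did not change with condition past the threshold for any member, 0 of 43 in shoots, where 0.216% of all genes passed, and 0 of 47 in roots, where 0.0% did. At unadjusted p under 0.05 there were 4 members and 4.18% of all genes in shoots and 5 members and 4.35% of all genes in roots.

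**Figure D5:**
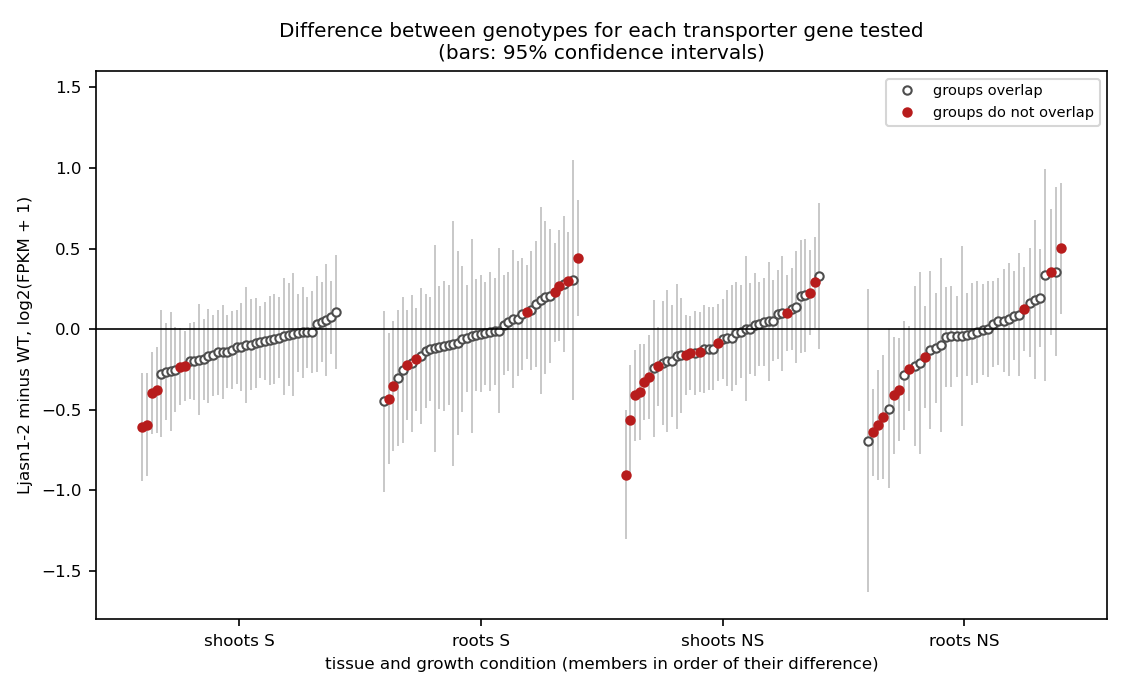
*Ljasn1‐2* minus WT difference on the log2(FPKM + 1) scale (y axis) for each tested member in the 4 combinations of tissue and condition (x axis), ordered by size, with bars for the 95% confidence intervals and filled points where the genotypes did not overlap. The points ran from −0.61 to 0.11 in shoots under S conditions, from −0.45 to 0.44 in roots under S conditions, from −0.91 to 0.33 in shoots under NS conditions and from −0.69 to 0.50 in roots under NS conditions, and none passed adjusted p 0.05.

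Genes that act beside the transporters were looked at as a list of 26, namely nitrate and nitrite reductase, glutamine synthetase, glutamate synthase, and genes described as chloride channels or S-type anion channels, families that include nitrate channels. In WT roots 3 of the 21 tested rose and 6 fell under S conditions, against 11.6% and 12.5% of all genes, in WT shoots 0 rose and 4 fell of 21, against 3.43% and 2.75%, and between genotypes none passed in any of the 4 comparisons. The nitrate reductase gene LotjaGi1g1v0152000 fell from 308 ± 48.5 to 28.9 ± 14.0 FPKM (SD, n = 3) in WT roots (log2 difference −3.49, limma adjusted p = 0.0005825) and from 207 ± 31.9 to 37.6 ± 2.16 FPKM in WT shoots (−2.42, adjusted p = 0.0001545). The nitrite reductase gene LotjaGi4g1v0074400 fell from 394 ± 33.6 to 34.6 ± 9.19 FPKM in roots (−3.50) and from 323 ± 53.1 to 16.2 ± 2.18 FPKM in shoots (−4.23). The chloride channel gene LotjaGi1g1v0623400, named CLC-b, also fell in both tissues (−2.09 in roots and −1.29 in shoots). LotjaGi1g1v0623300, also named CLC-b, overlaps it, and the 2 could share reads. It had 4.33 ± 0.698 FPKM under NS and 5.28 ± 0.672 FPKM under S conditions in WT shoots. In WT roots it had 1.1 ± 0.665 and 0.87 ± 0.17 FPKM. Of 4 S-type anion channel genes named SLAH1, 3 were tested in WT roots, where LotjaGi4g1v0012300 fell (−2.60), LotjaGi3g1v0468300 rose (2.17) and LotjaGi1g1v0424700 missed the threshold (0.70, limma adjusted p = 0.05071). A gene named SLAH3 (LotjaGi2g1v0137900, 1.04) rose there.

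In 16 places members lay next to each other or overlapped, with no gene between them. The 5 in which their highest levels were most unlike are described here. In others the highest levels were alike, as for the NPF3.1 genes LotjaGi1g1v0658000 and LotjaGi1g1v0658100, whose highest values were 12.8 and 13.7 FPKM. Their patterns were not alike. LotjaGi1g1v0658000 was highest in WT shoots under S conditions and LotjaGi1g1v0658100 in WT roots under NS conditions. Among the 3 neighbours LotjaGi1g1v0705600, LotjaGi1g1v0705700 and LotjaGi1g1v0705800, the last reached 143 FPKM in roots under S conditions, where the first stayed at or below 0.136 FPKM and the second between 0.548 and 1.22 FPKM. Beside the NPF5.1 gene LotjaGi1g1v0309300, with 56.4 to 87.3 FPKM in roots under S conditions, LotjaGi1g1v0309400 had 0.655 to 1.11 FPKM. In shoots, LotjaGi6g1v0004200 had 18.3 to 36.9 FPKM and its neighbour LotjaGi6g1v0004300 at most 0.315 FPKM. Of the NPF6.4 neighbours, LotjaGi1g1v0065700 had 22.1 to 37.4 FPKM in shoots, LotjaGi1g1v0065500 at most 1.13 FPKM, and LotjaGi1g1v0065600 was at 0 in nearly all libraries. LotjaGi1g1v0065500 and LotjaGi1g1v0065600 overlap by 22918 bases on opposite strands. Of the NPF1.2 neighbours on chromosome 3, LotjaGi3g1v0367800 had 9.05 to 13.9 FPKM in all libraries while LotjaGi3g1v0367600 and LotjaGi3g1v0367700 stayed at or below 0.685 and 0.281 FPKM. LotjaGi3g1v0367600 and LotjaGi3g1v0367700 overlap by 16153 bases, also on opposite strands. In all, 27 members overlap another gene of the table, 21 of them another member, and near-identical copies could share reads.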

How the data were processed

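Libraries were strand-specific poly(A) RNA-seq of pooled plants. The authors deposited FPKM per gene and library for the assembly named LjG1.1 in the table, and every value of 1 or more in the deposited table (53% of values) had lost its decimal point. The submitters' processing notes name fastp, featureCounts 1.5.0-p3 and DESeq2 1.20.0, and the aligner is not given in the sources used here. The point was restored so that each value stood for whole reads, fitted its replicates and kept the row order of the table. Of 1007 restored values of the members, 39 were placed above the smallest number of whole reads and none had another placement. On simulated data 0 of 385140 values were restored to another number.

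Groups were compared with limma 3.58.1 (R 4.3.3; lmFit, eBayes with trend, two-sided) on log2(FPKM + 1), using only the libraries compared (12 in tests of a difference between differences), for genes that reached 1 FPKM in 3 or more of them. Benjamini-Hochberg adjustment ran over all genes tested, with a threshold of 0.05, and the same script was tested on simulated data. Depth was 37503968 to 66820694 reads on genes per library. No column was without a sample. Alternatives were a pseudocount of 0.1 FPKM, no filter, rescaling to total reads, voom weights on the recovered reads, a replicate block and leaving out each library. Same-numbered libraries deviated together (r over 0.1 in every pair) in the genotype comparisons other than shoots under S conditions and in the S against NS comparisons other than *Ljasn1‐2* shoots, with r from 0.39 to 0.84. The methods describe replicates as independent pools of plants.

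The members and gene lists were chosen with earlier results of these data known. Named members were drawn from the AMT and NRT2 genes, the members in the study's lists of changed genes, the 6 largest changes in each direction per condition and tissue comparison, the 5 of smallest adjusted p in a called test of a difference between differences, the 5 NPF genes of highest level per tissue and condition, and members beside members of unlike level. Not every gene of these sets is named in the text. The reductase and channel genes named one by one lie outside these sets. LotjaGi2g1v0425100, LotjaGi2g1v0431000, LotjaGi4g1v0207100 and LotjaGi3g1v0222800, where named outside these, were chosen after their values were seen.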

Additional observations from a re-analysis of the deposited data

Results flagged for a closer look

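The S minus NS difference itself differed between WT roots and WT shoots, by the test of that difference (limma, adjusted p under 0.05), for 29 of 53 members, against 19.1% of all genes. The difference in roots minus that in shoots was −5.19 on the log2(FPKM + 1) scale for the NRT2.1 gene LotjaGi3g1v0487700_LC, 5.52 for the NPF8.1 gene LotjaGi1g1v0123500, −4.75 for the AMT1-2 gene LotjaGi5g1v0205600, −5.05 for the NPF6.3 gene LotjaGi2g1v0424800 and 5.21 for the NPF5.1 gene LotjaGi1g1v0309300. The NRT2.1 gene was at 0 in all shoot libraries and the NPF8.1 gene at no more than 0.172 FPKM there, so their values restate the difference in roots. Leaving out a library gave 23 to 27 such members of 50 to 53 tested, where 14.6% to 21.7% of all genes passed, and voom weights gave 24 of 53, where 14.4% did.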

How the results depend on the processing

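With a replicate block the genotype counts became 1 in shoots under S conditions (where the numbers were not shown to pair the libraries), 4 in NS roots, 2 in NS shoots and 0 in S roots, against 0.387%, 4.47%, 1.72% and 1.6% of all genes. For S against NS in WT shoots, where 17 members were called, the block gave 26, no filter 10 and rescaling 11. Leaving out a library gave 12 to 19 called members in WT roots, 5 to 16 in WT shoots, 15 to 21 in *Ljasn1‐2* roots, 7 to 19 in *Ljasn1‐2* shoots, 25 to 32 between WT tissues under NS and 30 to 36 under S conditions, and 0 between genotypes. Such fits have fewer libraries, and the filter still asked for 1 FPKM in 3 of them. Members at that level only in the group that lost a library were then not tested, so part of the lower counts comes from fewer tests. Of 88 single-gene results, voom weights left 88, the pseudocount 87, rescaling 85 and no filter 83 on the same side of the threshold. Of these 88, the replicate block added 4 calls, that of LotjaGi4g1v0270100 in shoots S and 3 given in the report, and removed none.

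Direction turned only in 3 genotype differences far from the threshold. Without 1 library the log2 difference of LotjaGi4g1v0155900 in shoots S ran from −0.145 to 0.0349 (0.0349 without WT replicate 1, 0.0101 without *Ljasn1‐2* replicate 3), that of LotjaGi5g1v0205600 in roots NS from −0.00691 (without *Ljasn1‐2* replicate 1) to 0.376, and that of LotjaGi4g1v0270100 in roots NS from −0.239 to 0.162 (0.0469, 0.0701 and 0.162 without WT replicate 2, WT replicate 3 or *Ljasn1‐2* replicate 1).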
